A study of Aspergillus nidulans with 7 samples.

Results

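The genes described here were highest 6 h after mycelium of Aspergillus nidulans had been moved from a submerged culture into air. Their levels were lower both before and after, though in a few members a later level came near the peak. A gene was included when its 6 h level was at least 20 CPM (the gene's count per 1000000 counts of its library), at least 2 times the 0 h level, at least 2 times the 12 h level, and the highest of the 7 times. This held for 37 of the 10639 genes measured. The members were chosen by these same levels, at all 7 times, so the peak at 6 h, the rise before it and the drop after it are given as a description, without a test.

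The data were 7 mRNA sequencing libraries of the wild-type strain FGSC A4, 1 for each time. The 0 h library came from mycelium grown as a bubbled liquid culture in minimal medium, collected on filter paper and frozen at once. The libraries of 6, 12, 18, 24, 30 and 48 h came from such filters kept wet with medium, in air and under constant light. Filters were taken in duplicate, but there is 1 set of values per time, and no source used here says whether filters were pooled.

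Aspergillus nidulans forms its asexual spores, the conidia, on upright stalks called conidiophores. When mycelium meets air it first sends up aerial hyphae, whose tips later swell into vesicles and bear metulae, phialides and finally chains of spores. By the labels' account 6 h is the time of aerial hyphae, before vesicles are complete. In filamentous fungi, genes for one secondary metabolite or one nutrient pathway often lie side by side on a chromosome and are expressed together.

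Library totals lay between 4186063 and 9899347 counts, and the 6 h library held 5351272. The sampled stages could be followed in the conidiophore regulator brlA, which was at 0.431 and 0.561 CPM at 0 and 6 h and at 11.9, 72.1, 120, 214 and 484 CPM from 12 to 48 h. No time had a replicate, so a time and its library cannot be told apart, and the peak of every member rests on the 6 h library. The intervals given with folds are exact 95% limits, which cover counting error only. Bulk RNA does not tell apart fewer cells expressing a gene from less RNA of it per cell.

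At 6 h the 37 genes together held 1.94% of all counts. They held 0.283% at 0 h and 0.595% at 12 h, and then 0.524%, 0.52%, 0.459% and 0.429% at 18, 24, 30 and 48 h. The median over members was 17.1, 232, 74.8, 84.5, 94.0, 57.4 and 25.9 CPM at the 7 times. Members differed widely in level at 6 h, with 8 at 1000 CPM or more and a lowest value of 22.6 CPM.

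The size of the step between 0 and 6 h ranged from 2.35-fold to 1504-fold, with a median of 13.2-fold, and 21 members were at least 10 times their 0 h level. The step between 6 and 12 h was smaller and more even. The 6 h level was from 2.04 to 13.4 times the 12 h level, with a median of 2.81, and 16 members were at least 3 times their 12 h level. A member therefore kept a median of 35.6% of its 6 h level at 12 h, and a median of 9.81% at 48 h. In 28 of the 37 members the lower counting limit of both folds was 2 or more.

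**Figure D1:**
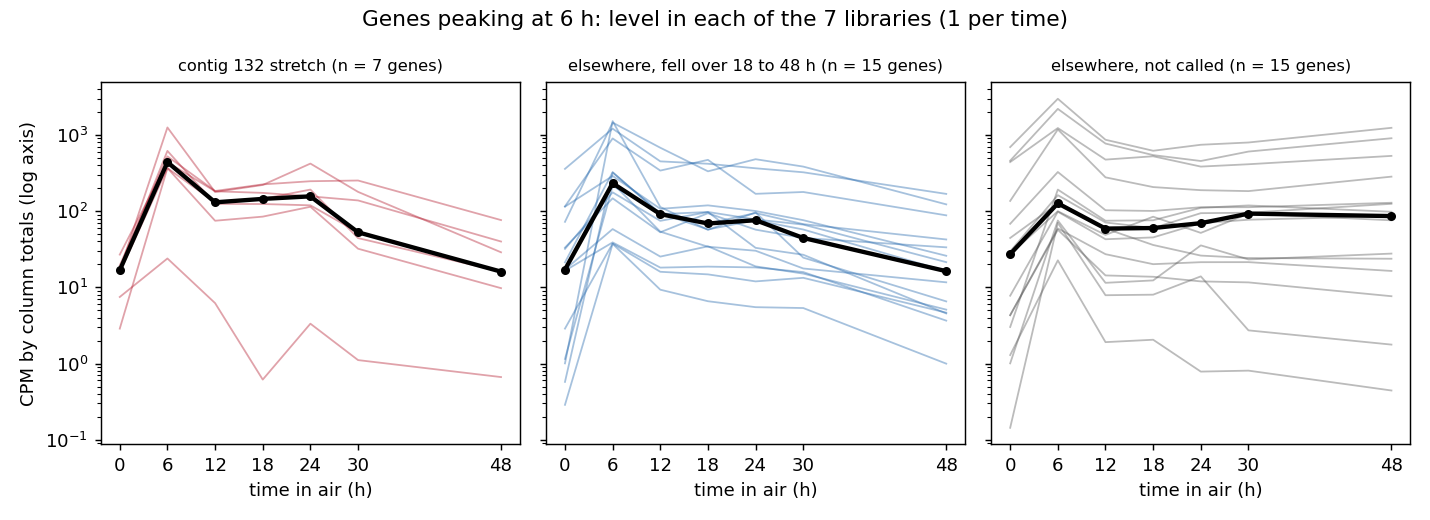
Level of each member (thin lines, CPM by column totals on a log axis) against time in air in hours, with the median of each panel in black; 1 library per time and no error bars. The 7 genes of the contig 132 stretch are on the left, the 15 other members that fell over 18 to 48 h in the middle and the 15 not called on the right. All 37 lines peak at 6 h by the rule. By totals the right-hand median drops to 59.0 CPM at 12 h and is higher again later, with 92.7 CPM at 30 h and 86.0 CPM by 48 h. With TMM factors, which are not drawn here, it is 56.6, 70.8 and 61.7 CPM at those times. That panel holds members not called as falling over 18 to 48 h, so its later course was in part selected.

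The levels depend on how libraries are scaled. The top 100 genes of each library took up 32.1% of the 6 h library and 45.3% of the 0 h library. TMM factors, which scale libraries to the bulk of genes, were 0.459 at 0 h, 0.878 at 6 h and 1.04 at 12 h. Over all genes tested, the median log2 ratio of 6 h over 0 h was 0.81 by totals and 0.015 with TMM. By totals 48.5% of genes were at least 2-fold higher at 6 h than at 0 h, and with TMM 20% were. For 12 h the background is low on both scales, with 2.05% of genes at least 2-fold higher at 6 h than at 12 h by totals and 3.33% with TMM.

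With TMM factors all 37 members were still highest at 6 h, and 29 of them still met the whole rule. The other 8 were 1.23 to 1.91 times their 0 h level on that scale. They were ilv3, admA, AN11120, AN1222, AN1825, AN1826, AN7903 and AN8154. With TMM the rule takes 63 genes in all, of which 34 are not members, so the list is not the same set on both scales: the 29 shared genes are 78.4% of the members and 46.03% of the genes found with TMM.

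**Figure D2:**
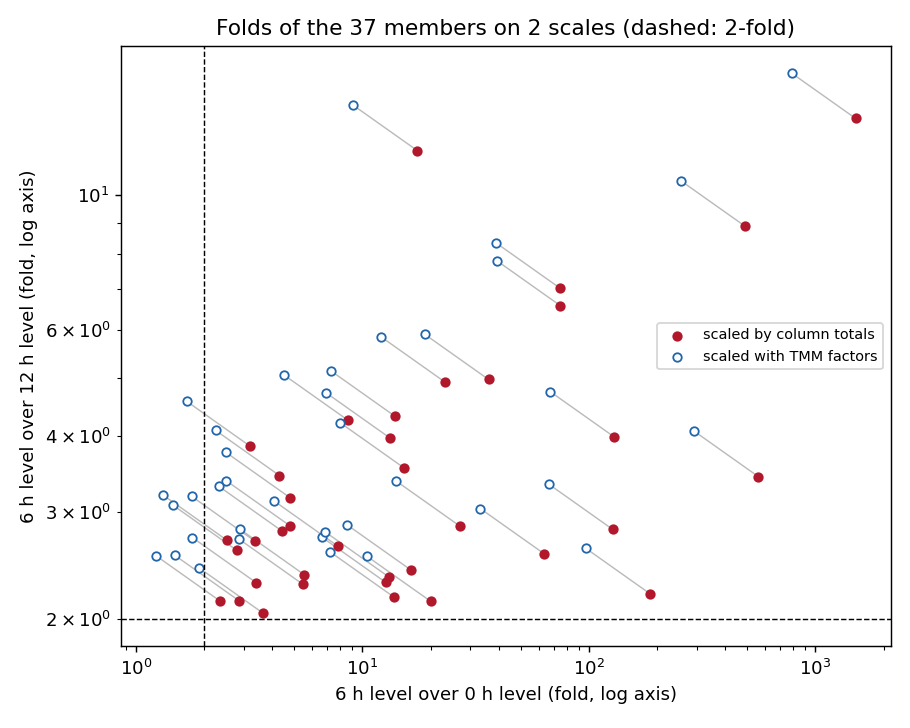
The 6 h level over the 0 h level (x axis) and over the 12 h level (y axis), both as folds on log axes, for each of the 37 members; red points are scaled by column totals and open blue points with TMM factors, and a line joins the same gene. Dashed lines mark 2-fold. With TMM every gene moves left and up, and 8 of them lie left of the 2-fold line.

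The largest group of members lay together. On contig 132, 7 of the 37 members fell within a stretch of 25.1 kb (84053 to 109151 in the deposited coordinates, whose genome build no source used here names) that holds 13 genes. The stretch was picked out after its values were seen. Neither the deposited table nor the reference names these genes, so they are given by identifier. They were AN7893, AN7894, AN7897, AN11584, AN7899, AN7902 and AN7903.

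AN7893 (84053 to 85151) stood at 16.8, 1252, 178, 220, 420, 179 and 28.8 CPM at the 7 times. It had the highest 6 h level per length among the members here after AN7894, at 1276 against 1570 RPKM (counts scaled by gene length and library total). After the peak AN7893 had a second, smaller maximum at 24 h. Its neighbour AN7894 (85886 to 86218) stood at 19.4, 523, 184, 224, 247, 252 and 76.3 CPM, and so held between 184 and 252 CPM from 12 to 30 h.

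AN7897 (93757 to 95037) stood at 17.1, 617, 124, 124, 119, 52.7 and 15.9 CPM from 0 to 48 h, and so ended near where it began on this scale. AN11584 (95607 to 95996) had the steepest step of the stretch. Its levels were 2.88, 366, 130, 145, 192, 44.2 and 16.1 CPM, and the 6 h level was 127 times the 0 h level with a counting interval of 82.3 to 209. AN7899 (98425 to 99261) went through 26.9, 439, 182, 173, 156, 138 and 39.9 CPM.

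AN7902 (104124 to 105576) stood at 15.8, 367, 74.8, 84.7, 114, 32.1 and 9.76 CPM, with the small maximum at 24 h seen in AN7893 and AN11584. AN7903 (108280 to 109151) was the weakest, at 7.48, 23.9, 6.21, 0.616, 3.34, 1.11 and 0.665 CPM. Those of 18 to 48 h rest on 3, 17, 11 and 6 counts. Its 6 h level was 3.20 times the 0 h level by totals and 1.67 times with TMM.

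The 6 genes of the stretch that were not members followed in part. AN7895, between AN7894 and AN7897, was the second most abundant transcript of the whole 6 h library, at 14940 CPM or 1.49% of its counts. Its level was 211 CPM at 0 h and still 10509 CPM at 12 h, a drop too small for the rule, and then 5955, 9113, 8216 and 1738 CPM. AN7898 (17.1, 1126, 734, 627, 699, 620 and 155 CPM) and AN7900 (52.1, 559, 305, 350, 330, 275 and 53.9 CPM) were also highest at 6 h.

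In the remaining genes of the stretch a peak at 6 h turned with the scaling or was absent. AN7896 stood at 184 CPM at 6 h and between 109 and 205 CPM at every later time, above the 35.9 CPM of 0 h throughout, and was highest at 18 h by totals and at 6 h with TMM. AN7901 was highest at 30 h by totals, with 56.0 CPM against 38.5 CPM at 6 h, but with TMM it had 42.7 CPM at 30 h against 43.8 CPM at 6 h. AN11583 had at most 14 counts in any library.

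The rule fixed the highest time of the 7 members, so it is open to comparison only in the other 6 genes. Of these, 3 were highest at 6 h by totals and 5 with TMM, while 5.67% of all genes were by totals and 13.2% with TMM. Of the 5 genes on either side, 0 of 10 were highest at 6 h by totals. A member in the places nearest the stretch would have been taken into it, so this count was in part set by how the stretch was drawn. The neighbour AN7904 just past the end had 23.0, 27.7, 41.6, 35.3, 45.1, 25.1 and 21.3 CPM at the 7 times, and the next 4 had at most 0.374 CPM at 6 h. On the other side AN7892 was highest at 0 h.

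**Figure D3:**
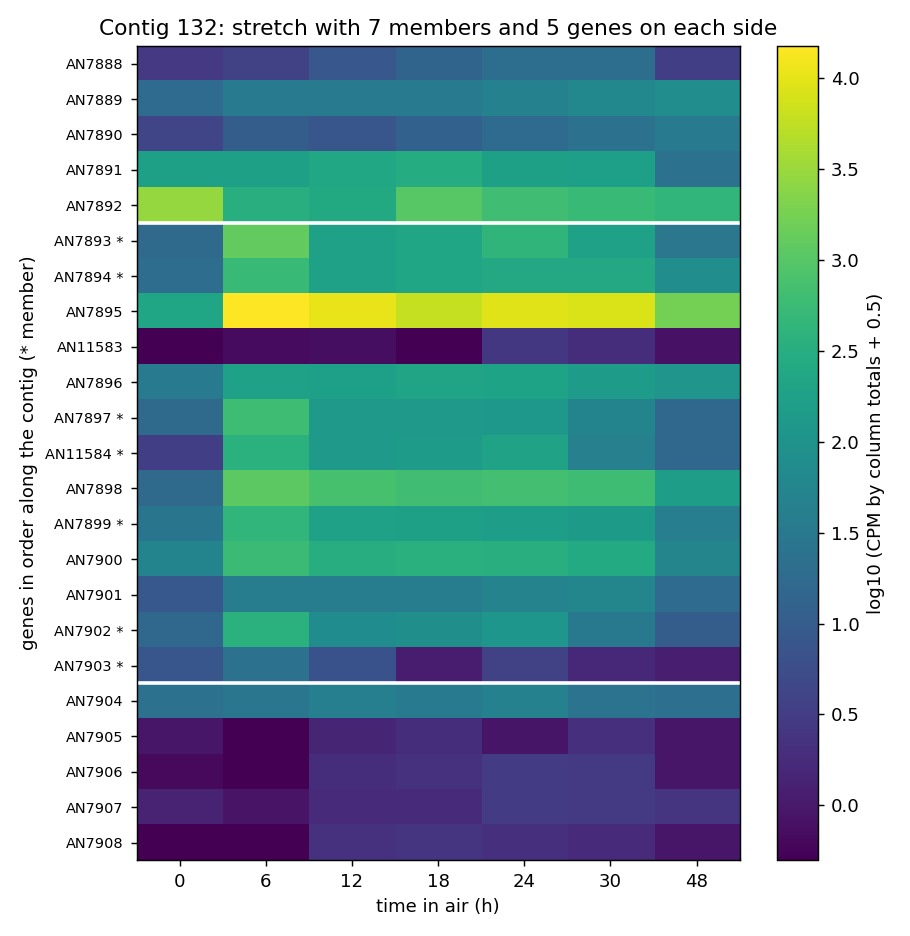
Colour gives log10 of CPM by column totals plus 0.5 for each gene (rows, in order along contig 132, members starred) in each of the 7 libraries (columns, hours in air). White lines bound the stretch of 13 genes, with 5 genes on each side. Inside the lines 10 of the 13 rows are brightest at 6 h. Of these 7 are members, whose highest time the rule fixed, and 3 are among the 6 other genes. Of the 10 flanking rows 0 are brightest at 6 h. A member in the places nearest the lines would have been taken into the stretch. Some flanking rows are still bright at 6 h, such as AN7892 with 320 CPM. AN7895 is the brightest row with 14940 CPM at 6 h.

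The remaining 30 members were spread over other contigs, with 3 adjacent pairs among them. AN8506 and AN8507 lie next to each other on contig 151. AN8506 stood at 4.31, 59.2, 27.2, 20.1, 21.4, 21.4 and 16.4 CPM from 0 to 48 h. AN8507 stood at 0.288, 37.2, 9.32, 6.58, 5.50, 5.35 and 0.998 CPM, where the 0 h level is 2 counts and its fold of 129 has a counting interval of 35.3 to 1075.

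AN11092 and AN11099 are neighbours on contig 155. AN11092 stood at 4.31, 57.0, 14.3, 13.8, 12.0, 11.6 and 7.65 CPM, and AN11099 at 16.7, 232, 53.7, 34.1, 30.2, 17.7 and 11.6 CPM. Their steps at 6 h were alike, 13.2-fold (counting interval 9.07 to 19.9) and 13.9-fold (11.5 to 17.0). The genes AN1825 and AN1826 on contig 29 had the shallowest peaks of the 3 pairs. AN1825 went through 16.5, 38.9, 18.2, 18.7, 18.3, 15.9 and 3.66 CPM and AN1826 through 17.1, 58.1, 25.3, 34.5, 18.8, 15.2 and 5.10 CPM.

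Counting both the stretch and the pairs, 12 members (32.4%) had another member as the next gene on their contig. Of the 72 places next to a member, 16.7% held a member, while members are 0.348% of all genes. A gene lying between members was counted once for each.

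Several members were close to silent in the submerged culture. AN7521 (contig 126, 320995 to 322677) had 7 counts at 0 h, or 1.01 CPM, and 1514 CPM at 6 h, a fold of 1504 with a counting interval of 730 to 3742. It also had the sharpest drop, to 113 CPM at 12 h, and stood at 56.7, 96.2, 24.5 and 6.54 CPM thereafter. Of the 37 members it had both the largest fold into the peak and the largest fold out of it, though counting intervals of other members overlap. That of AN2818 over 0 h was 218 to 2054. Over 12 h AN7521 was at 13.4 (12.2 to 14.7) and AN8921 at 11.8 (5.82 to 28.0).

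AN2818 (contig 48) stood at 0.575 CPM at 0 h, from 4 counts, at 322 CPM at 6 h and at 93.6, 57.5, 75.9, 57.4 and 16.3 CPM later. AN7851 (contig 131) had 1 count at 0 h, or 0.144 CPM, and stood at 70.1, 7.88, 8.01, 13.9, 2.73 and 1.77 CPM after that. Its fold over 0 h, 487, has a counting interval of 86.9 to 19299, so its size is poorly known. AN8921 (contig 162) had the lowest peak of the 37, with 1.29, 22.6, 1.91, 2.05, 0.785, 0.808 and 0.444 CPM.

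Not every gene with a quiet start became quiet again. AN9393 (contig 169) stood at 1.15, 214, 97.0, 68.8, 94.4, 67.5 and 42.5 CPM, so that its 48 h level was 36.9 times its 0 h level with a counting interval of 18.5 to 86.1. AN3421 (contig 53) stood at 3.02, 192, 74.8, 75.8, 110, 119 and 98.0 CPM. AN1566 (contig 25) stood at 1.01, 75.3, 11.5, 12.3, 35.5, 23.2 and 27.7 CPM, with a second maximum at 24 h.

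Other members were abundant throughout and had a broad base under the peak. AN4443 (contig 75) stood at 692, 2976, 863, 619, 742, 795 and 1238 CPM from 0 to 48 h. AN1263 (contig 17) stood at 459, 2193, 770, 543, 455, 604 and 904 CPM. Both were lower at 18 and 24 h than at 48 h, and the 48 h level was 1.79 and 1.97 times that of 0 h by totals, or 0.589 and 0.648 times with TMM.

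AN1222 (contig 17) stood at 440, 1229, 474, 524, 384, 412 and 530 CPM. AN3058 (contig 49) stood at 136, 1178, 277, 207, 188, 183 and 283 CPM. AN5883 (contig 97) stood at 68.2, 326, 103, 100, 112, 113 and 129 CPM, so that it stayed between 100 and 129 CPM from 12 h on.

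On contig 7, AN0454 stood at 72.3, 1450, 678, 333, 480, 384 and 123 CPM. AN0493 stood at 115, 898, 340, 471, 169, 178 and 88.0 CPM, and its 2049 RPKM were the highest 6 h level per length of all members. Both lie within the listed coordinates of AN0621, which thus run at least from 230649 to 352866. Whether so long a span is right was not checked. No strand setting is given, so if it is right, reads of that gene cannot be told apart from theirs.

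The symbols of 3 members were known. ilv3 (AN6346, contig 104, 348491 to 350473) is named like the Saccharomyces cerevisiae gene for dihydroxyacid dehydratase, which acts in the synthesis of isoleucine and valine. It stood at 358, 1206, 449, 418, 365, 323 and 168 CPM from 0 to 48 h. leu2A (AN0912, contig 14, 137678 to 139099) is named like the Saccharomyces cerevisiae gene for beta-isopropylmalate dehydrogenase of leucine synthesis. It stood at 29.6, 162, 70.9, 60.0, 94.0, 95.3 and 125 CPM.

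Both thus bear names from the synthesis of branched-chain amino acids, and they were the members among 18 listed amino acid synthesis genes. The median log2 ratio of 6 h over 0 h in that list was 1.10 by totals and 0.18 with TMM, beside 0.81 and 0.015 over all genes tested. In the list 3 of 18 genes were highest at 6 h by totals and 7 with TMM, where 5.67% and 13.2% of all genes were. By totals those 3 were the 2 members, by the rule, and lysB, at 58.8, 219 and 197 CPM at 0, 6 and 12 h. ilv3B, with 16.2 CPM at 0 h and 33.5 CPM at 6 h, and ilv3C, with 0 and 2.43 CPM, were at 47.5 and 5.97 CPM at 12 h and so had no peak at 6 h. On the TMM scale the 6 h level of ilv3 was 1.76 times that of 0 h and that of leu2A 2.86 times.

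admA (AN2810, contig 48, 7997 to 10337), a symbol used in aspergilli for a metalloprotease of the ADAM type, stood at 44.4, 127, 59.0, 36.0, 26.1, 24.2 and 23.7 CPM. The other 14 gene lists examined held 0 members. They covered conidiation regulators, light receptors, nitrogen uptake, low oxygen and C2 metabolism, iron, ergosterol, heat shock, oxidative stress, ribosome assembly, DNA replication, wall glucans, chitin, plant polysaccharides and conidiophore markers. All 15 lists together held 145 genes, and members are 0.348% of all genes. A count of 0 is therefore near that share and is not read as a result about these themes. The iron and siderophore list came nearest in timing, with 6 of 11 genes highest at 6 h by totals and 6 with TMM. Over all genes these shares were 5.67% and 13.2%. The list was singled out after its values were seen. However, 0 of its genes were 2-fold above both 0 h and 12 h: AN5823 was at 15.1, 587 and 511 CPM at 0, 6 and 12 h.

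The last members were of middling level. AN10582 stood at 21.3, 324, 91.3, 97.4, 77.7, 66.6 and 21.4 CPM from 0 to 48 h. AN11120 stood at 114, 289, 107, 119, 100, 76.1 and 25.9 CPM, and AN11171 at 31.9, 176, 74.5, 97.2, 33.0, 26.8 and 4.55 CPM. These 3 fell off again by 48 h, whereas AN10298 held on, with 7.77, 98.3, 42.8, 45.2, 69.5, 77.1 and 86.0 CPM.

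AN7378 stood at 33.2, 147, 52.8, 93.9, 57.1, 44.4 and 33.5 CPM. AN5328 stood at 2.88, 37.6, 16.0, 14.8, 12.0, 13.3 and 4.66 CPM. AN8154 stood at 27.3, 99.6, 48.7, 84.5, 51.8, 92.7 and 75.7 CPM. Its 6 h level was 1.07 times its highest other level by totals, the smallest such ratio of the 37, but with TMM it was 1.44 times, and AN1825 at 1.23 times and AN11120 at 1.32 times were lower.

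The edges of the rule were set by the 12 h condition more than by the others. It alone kept out 301 genes: AN8154, with a 6 h level 2.04 times that of 12 h, was just inside, and AN0158 and AN2593, at 1.99 times, were just outside. The level of 20 CPM alone kept out 30 genes, with AN8921 at 22.6 CPM inside and AN9203 at 19.6 CPM outside. The 0 h condition alone kept out 7, with AN1825 at 2.35 times inside and AN10626 at 1.86 times outside. The condition on the highest time alone kept out 7 as well: the 6 h level was 1.07 times the highest other level in AN8154 and 0.721 times in AN10857, the nearest outside.

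The course of each gene as conidiophores matured was fitted on the 18, 24, 30 and 48 h libraries. The rule used these levels too, since each had to stay below the 6 h level, so the members' counts are a description and are not read against those of all genes. A slope on hours was fitted to every gene with edgeR's quasi-likelihood test after TMM normalization. A change is the slope multiplied by the 30 h spanned, on the log2 scale, with its standard error (SE), and the threshold was a Benjamini-Hochberg adjusted p of 0.05 over 9675 genes. Of the 37 members 21 fell and 0 rose, and over all genes tested 11.2% fell and 10.3% rose. At an unadjusted p under 0.05, 0 members rose by edgeR, DESeq2 or limma-voom with all 4 libraries and their own scaling, but 3 rose by edgeR scaled by totals and 1 by edgeR without the 18 h library.

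The median change was -1.96 in members and 0.059 over all genes tested. A gene that ended above its 6 h level could not be a member, so both the lack of rising members and the share that fell follow in part from the rule. Of the 5129 other genes with at least 20 CPM at 6 h, 14.7% fell and 5.89% rose. Another 475 genes were highest at 6 h with at least 20 CPM but had missed the fold conditions, and of those 20.8% fell and 0.211% rose, with a median change of -0.38. In the stretch on contig 132, 6 of 7 members fell, and outside it 15 of 30 did. Over all 13 genes of the stretch 11 fell, among them the non-members AN7895, AN7896, AN7898, AN7900 and AN7901. Falls were not confined to the stretch. Among the genes flanking it, AN7891 (-3.95, SE 0.43, edgeR adjusted p = 0.00108) and AN7892 (-1.35, SE 0.41, edgeR adjusted p = 0.0465) fell too. AN7890 rose (1.11, SE 0.33, edgeR adjusted p = 0.0436), and the other flanking genes did not pass the test.

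**Figure D4:**
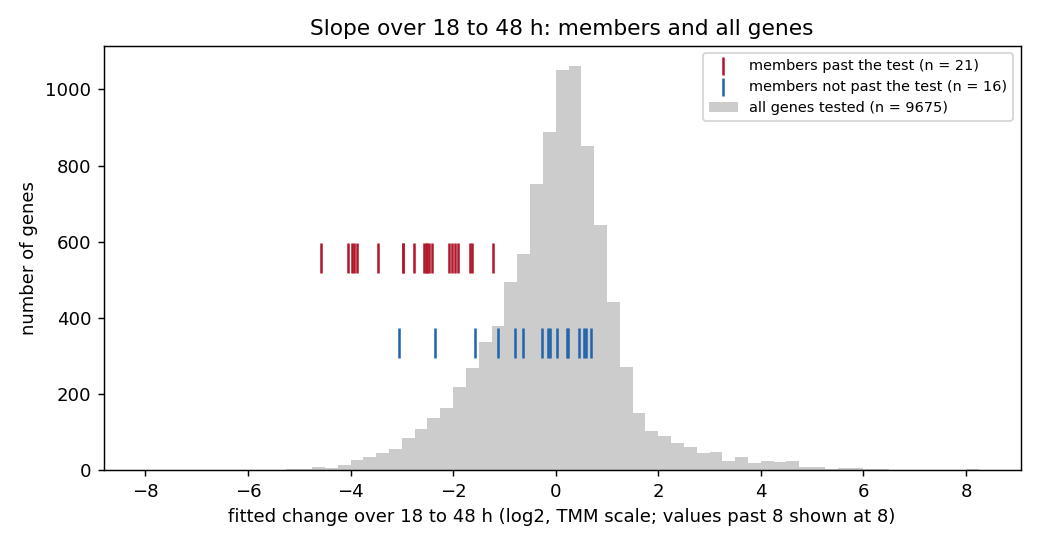
Fitted change over 18 to 48 h (x axis, log2, TMM scale) for the 37 members, as red ticks where the test was passed and blue ticks where it was not, and for all 9675 genes tested as grey bars (number of genes on the y axis); the height of the ticks has no meaning. The 21 red ticks lie between -4.58 and -1.23.

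On the log2 scale AN11171 fell by 4.58 (SE 0.46; edgeR adjusted p = 0.000882). It had the largest fall of the 37 with all 4 libraries, but without the 18 h library it fell by 3.16 over 24 h, behind AN7893, AN7521, AN7902 and AN11584. AN7521 fell by 4.06 (SE 0.85; edgeR adjusted p = 0.0259). In the stretch on contig 132 AN7893 fell by 3.97 (SE 0.84; edgeR adjusted p = 0.0221), AN11584 by 3.93 (SE 0.75; edgeR adjusted p = 0.0176) and AN7902 by 3.88 (SE 0.65; edgeR adjusted p = 0.00912).

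AN7897, AN7899 and AN7894 of the same stretch fell as well, with changes of -3.47, -2.51 and -2.02. AN7895, the non-member with 14940 CPM at 6 h, had a change of -2.50 (SE 0.70; edgeR adjusted p = 0.0377). AN7903 did not pass the test (-1.57, SE 1.18; edgeR adjusted p = 0.362), with few counts at all 4 times.

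ilv3 fell by 1.63 (SE 0.33; edgeR adjusted p = 0.0109), while leu2A did not pass the test (0.59, SE 0.30; edgeR adjusted p = 0.185), nor did admA (-0.79, SE 0.36; edgeR adjusted p = 0.146). ilv3 was the only gene called in the amino acid list, where 0 of 18 rose and 1 fell.

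The other 12 members that fell were AN0454, AN0493, AN10582, AN11099, AN11120, AN1825, AN1826, AN2818, AN5328, AN7378, AN8507 and AN9393. Their changes were between -2.98 and -1.23. The calls leaned on the 48 h library: without it 1 member fell, AN11171, while 0.126% of all genes fell and 0.732% rose. The sizes of several falls did so too. The libraries left then span 12 h, so the slopes were set side by side per 10 h. Without the 48 h library 9 of the 21 falls were smaller by over 1.5 times and 9 were larger than with it, and all 21 stayed negative. Per 10 h, AN7893 then had a change of -0.49 against -1.32 with all 4 libraries, AN7894 -0.096 against -0.67, and AN0454 -0.065 against -0.69. In AN11171 it was -1.79 against -1.53. With the rank of the time in place of hours 8 members fell.

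A second rise, with a level between 18 and 48 h at least 2 times that of 12 h, was seen in 3 members by totals: AN7893 and AN1566, both at 24 h, and AN10298 at 48 h. With TMM it was seen in AN7893 and AN1566. Over all genes tested it was seen in 33.3% by totals and 21.9% with TMM. A member's later levels lie below its 6 h level, whose median was only 2.81 times that of 12 h, so the rule largely sets how many members can reach such a rise and the 2 shares are not compared. With 1 library per time such rises have no replicate check.

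Between the ends of the course the members divided. By totals the 48 h level was at least 2 times the 0 h level in 14 members and at most 0.5 times that level in 7, where 68.8% and 8.8% of all genes tested were. With TMM those numbers were 7 and 16, against 33.4% and 24.4% of all genes, so which way most members moved over the whole course turned with the scaling. The rule's upper bound on the 48 h level and its condition on the 0 h level bear on these counts, which are a description. AN9393, AN3421 and AN2818 had 48 h levels 36.9, 32.5 and 28.3 times those of 0 h by totals, and 12.1, 10.7 and 9.33 times with TMM. AN7903 and AN11171 were the lowest, at 0.089 and 0.142 times by totals and 0.029 and 0.047 times with TMM.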

How the data were processed

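The table deposited by the authors gives each of 10639 genes, in each of 7 libraries, a count, an RPKM value and a signal in reads per nucleotide, per the file headers. The counts deposited by the authors are whole numbers and not normalized. The RPKM deposited by the authors equals count per kilobase of the length implied by the signal, relative to the column's summed counts. The submitters' processing notes name CASAVA, with no role; no source used here names the aligner, genome build, annotation or strand setting.

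Here CPM was computed from column sums, and the signal was used for length only. The members, lists and tests were chosen with earlier results of these data known. The rule also sets aside 2 genes by name, of which 0 met its thresholds. A gene table of the reference assembly ASM1142v1 held all 37 members, 3 of them with a symbol. Its coordinates were not used, and promoters were not analysed here. The named genes were the 12 members with the highest 6 h CPM, the 10 with the largest ratio of 6 h to the higher of 0 and 12 h, those with a symbol, those in a run on a contig, the 5 largest falls and those nearest each threshold. The remaining members were named after their values were seen. Runs allowed up to 3 other genes between members, as chosen after seeing the data.

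The slope over 18 to 48 h used edgeR 4.0.16 in R 4.3.3 (quasi-likelihood, robust, TMM) on genes that reached 1 CPM in any of the 4 libraries and 15 counts in all. A straight line leaves 2 residual degrees of freedom per gene before moderation, and departures from it count as error. p-values measure only the spread between single libraries. The fit was also run on simulated counts with straight-line changes and independent error, which cannot speak to library effects or to courses that bend. DESeq2 1.42.0 and limma-voom (limma 3.58.1) gave alternatives. List medians are of log2(CPM + 0.5). Folds have exact binomial limits at 95%. Tables used pandas 2.3.3 and SciPy 1.17.1 under Python 3.11.15, and plots matplotlib 3.10.9.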

Additional observations from a re-analysis of the deposited data

How the results depend on the processing

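The number of genes that met the rule was 37 with column totals. It was 63 with TMM factors, 64 with DESeq2 size factors, 121 with folds of 1.5 and 16 with folds of 3. With upper quartile factors, 6 h levels of 10 or 40 CPM, or RPKM ratios it stayed within 1.5 times of 37. The number of members that fell over 18 to 48 h was 21, and 8 with the rank of the time. Leaving out 1 library at a time gave 1 to 21, the lowest without 48 h. With 3 libraries 1 residual degree of freedom is left. Changes fitted without the first or last library cover a shorter span. The other alternatives, among them DESeq2 and limma-voom, gave 20 to 22, and 0 members rose in any. Over all genes tested 1000 rose and 1079 fell. Scaled by totals these were 1552 and 702, with the median change of all genes at 0.35 in place of 0.059, and with the rank of the time 311 and 144. Leaving out 1 library gave 70 to 1073 rising and 12 to 1214 falling. Of 310 alternative slopes of the members with a printed or called slope, 265 kept their side of the threshold, 44 lost a call and 1 gained one, and 0 changed direction; the cause was not tested. A member with the next gene also a member was found in 32.4% of cases, and in 35.1% within the next 2 genes. No paired analysis was possible because each time has 1 library. Depth limits the lowest values: levels below about 1 CPM rest on a few counts.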
